A study of Mus musculus with 6 samples.

Results

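Mammary epithelium is built from a luminal layer, which holds hormone-sensing cells and alveolar progenitors, and a basal layer of contractile myoepithelial cells. A small set of transcription factors marks these lineages: Foxa1 and Gata3 act with the estrogen receptor in hormone-sensing luminal cells, Elf5 and Ehf are ETS factors of the alveolar progenitor arm, Sox9 and Sox10 are SOX factors linked to progenitor and stem-like states, and Trp63 (p63) is needed for the basal layer. Tfap2c and Runx1 belong to the AP-2 and RUNX families and act in both layers, and Kit is a receptor tyrosine kinase carried by luminal progenitors. These 10 genes were chosen by name as listed luminal, progenitor and basal regulators, with earlier results of these data known, and all 10 are among the 31055 genes of the count tables.

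The 10 genes were followed in single-cell RNA-seq of female C3(1)-Tag mice (C3TAG, FVB/NJ background), in which SV40 large T antigen is driven by the C3(1) promoter. All 6 libraries carry this transgene, so no library is from a mouse without it. The states were Prepuberty (whole mammary gland, 5 weeks), DCIS (whole gland with in situ lesions, 14 weeks) and Tumor (palpable tumor, older than 18 weeks), with 2 libraries each; age, state and tissue handled (gland or tumor) change together and cannot be told apart. The labels do not say that the 2 libraries of a state are from different mice, so p-values may measure technical spread only. The study's methods give the tumors another dissociation kit, which cannot be told apart from the Tumor state, and Tumor 2 alone another reagent version, which cannot be told apart from a difference between Tumor 2 and the other libraries; the labels give 1 protocol for all.

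Between 2548 and 4306 cells were kept per library, 21537 in all, with a median of 6541 to 13631.5 UMIs (unique molecular identifiers, each counting 1 captured RNA molecule) per cell. Any 2 libraries shared 7 to 34 cell barcodes. The classes of cells, all without a UMI of Ptprc or Cdh5, were set by gates on marker genes that are not among the 10. Epcam-positive cells had at least 2 UMIs of Epcam and fewer than 5 of Krt5 and Krt14 together (4879 cells), Krt5/Krt14-positive cells had at least 5 UMIs of these keratins (3999 cells), and stromal cells had at least 5 UMIs of Pdgfra, Lum and Dcn together, fewer than 5 of the keratins, no Epcam and no Pecam1 (5127 cells).

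The labels of the gates were checked against other markers. Summed over 6 luminal epithelial genes (Krt8, Krt18, Krt19, Cldn3, Cldn4 and Cd24a), the level was 3630 to 11540 CPM (UMIs of the genes per 1000000 UMIs of the summed cells) in Epcam-positive cells and 15.3 to 86.5 in stromal cells, whereas 6 fibroblast genes summed to 1033 to 34706 CPM in stromal cells, 25.4 to 180 in Epcam-positive cells of the glands and 444 and 646 in those of Tumor 1 and 2. Secretory luminal genes summed to 2529 to 14348 CPM in Epcam-positive and 84.7 to 164 in stromal cells. The 5 hormone-sensing luminal genes went the other way in 5 of 6 libraries, with 301 to 1480 CPM in Epcam-positive and 862 to 2734 in stromal cells. Of them Ly6a had 838 to 2718 CPM in stromal and 274 to 787 in Epcam-positive cells, while Prlr had 0 to 14.0 and 23.6 to 382.

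Genes of other cell types gave lower sums, apart from myoepithelial genes, which summed to 394 to 5464 CPM in Krt5/Krt14-positive, 103 to 736 in Epcam-positive and 21.8 to 1007 in stromal cells. Over the Epcam-positive, Krt5/Krt14-positive and stromal cells of all libraries, endothelial genes summed to 4.53 to 48.1 CPM, macrophage genes to 7.02 to 99.0, pericyte genes to 5.67 to 72.2, T cell genes to 0.311 to 146 and mast cell genes to 0 to 1.6. The Krt5/Krt14 gate did not hold basal cells alone. Of its cells, 71.3% to 99.7% also had at least 2 UMIs of Epcam, and the smooth muscle genes Acta2 and Myh11, which define myoepithelium, reached a sum of at least 5 UMIs in 39.0%, 76.9%, 27.6% and 74.7% of them in Prepuberty 1, Prepuberty 2, DCIS 1 and DCIS 2. In the tumors this share was 0.0743% (1 cell) and 0.20% (3 cells), and Krt8, a luminal keratin, was at 360 to 1820 CPM over the class. The gate is therefore called Krt5/Krt14-positive below, and its Acta2/Myh11-positive cells (53, 60, 123 and 369 in the 4 whole glands) are described apart as the contractile cells; that split was chosen after the values had been seen. The tumors hold too few contractile cells for a value. The gates count UMIs of unthinned cells, and depth differed between the classes. Median depths of Epcam-positive and Krt5/Krt14-positive cells were 10865 and 14157 UMIs in Prepuberty 1 and 7769.5 and 7203.5 in Prepuberty 2. They were 7833 and 10171 in DCIS 1, 8866 and 7589 in DCIS 2, 10160 and 17421 in Tumor 1, and 6637 and 18867 in Tumor 2. The part of depth in the split between these classes was not tested.

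The genes lie on 6 mouse chromosomes (GENCODE vM21, GRCm38). Elf5 (chr2:103411688-103450989, plus strand) and Ehf (chr2:103263433-103303278, minus strand) are neighbouring ETS genes 108409 bases apart. Chromosome 2 also carries Gata3 (chr2:9857078-9890034, minus) and Tfap2c (chr2:172549593-172558622, plus). Chromosome 16 carries Trp63 (chr16:25683763-25892102, plus) and Runx1 (chr16:92601466-92826149, minus). The others are Foxa1 (chr12:57540628-57546916, minus), Sox9 (chr11:112782224-112787760, plus), Sox10 (chr15:79154908-79165240, minus) and Kit (chr5:75574916-75656722, plus). All 10 are protein-coding genes.

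RefSeq promoter windows (GRCm38.p6) matched 5 of the 10: Elf5, Gata3, Foxa1, Runx1 and Kit. Sox9, Sox10, Trp63, Ehf and Tfap2c were not in the table. The 250 bases before a start were searched on both strands for core letters bound by the families of these genes. The letters GGAAGT of ETS factors were held by 19.7% of 32851 windows of the same length, AGATAA of the Gata family by 9.99%, GTAAACA of FOX factors by 3.17%, TGTGGT of RUNX factors by 14.0%, ACAATGG of SOX factors by 3.02% and GCCNNNGGC of AP-2 factors by 13.7%. The windows of Foxa1, of the downstream start of Elf5 and of the downstream start of Runx1 are shown because the results below turn on these genes; capitals mark a match. They are chr12:57546112-57546361 (minus strand), chr2:103423818-103424067 (plus strand) and chr16:92697330-92697579 (minus strand), and no more than 10 of the 250 bases of any of them lie in an annotated exon. Each lies inside the span of its own gene, in an intron of another annotated transcript.
Foxa1 promoter: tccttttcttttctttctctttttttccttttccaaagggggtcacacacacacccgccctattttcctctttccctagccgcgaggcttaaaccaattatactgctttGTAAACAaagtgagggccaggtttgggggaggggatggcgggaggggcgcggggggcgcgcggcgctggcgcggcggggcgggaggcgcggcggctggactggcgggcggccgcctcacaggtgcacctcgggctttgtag
Elf5 promoter: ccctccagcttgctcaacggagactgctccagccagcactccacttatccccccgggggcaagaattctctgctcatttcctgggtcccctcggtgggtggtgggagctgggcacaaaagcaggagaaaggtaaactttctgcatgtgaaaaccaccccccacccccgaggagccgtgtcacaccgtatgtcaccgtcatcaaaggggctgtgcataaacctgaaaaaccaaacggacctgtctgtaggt
Runx1 promoter: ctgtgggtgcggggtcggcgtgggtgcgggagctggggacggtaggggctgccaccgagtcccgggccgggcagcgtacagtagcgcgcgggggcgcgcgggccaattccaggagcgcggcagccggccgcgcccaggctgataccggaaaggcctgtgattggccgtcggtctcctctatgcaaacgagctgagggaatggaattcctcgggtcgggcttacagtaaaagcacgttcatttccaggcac

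Foxa1 carried 1 match, the FOX letters that its own protein family binds, beginning 141 bases before the start. The windows of Elf5 and Runx1 that are shown held none of the 6 sets of letters. Gata3 held 3 AP-2 matches, each of the Kit starts 1 and the upstream start of Runx1 1, and the upstream start of Elf5 held 1 SOX match. A match describes letters and is not a binding site, and a window without one says only that these letters are absent there.

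Levels in CPM were taken from the summed cells of a class in a library. They were compared between classes with edgeR's quasi-likelihood test with the library as a block, so that each class was set against the others within the same library. Adjusted p-values are Benjamini-Hochberg values over all genes tested, and a gene was called where this was under 0.05.

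**Figure D1:**
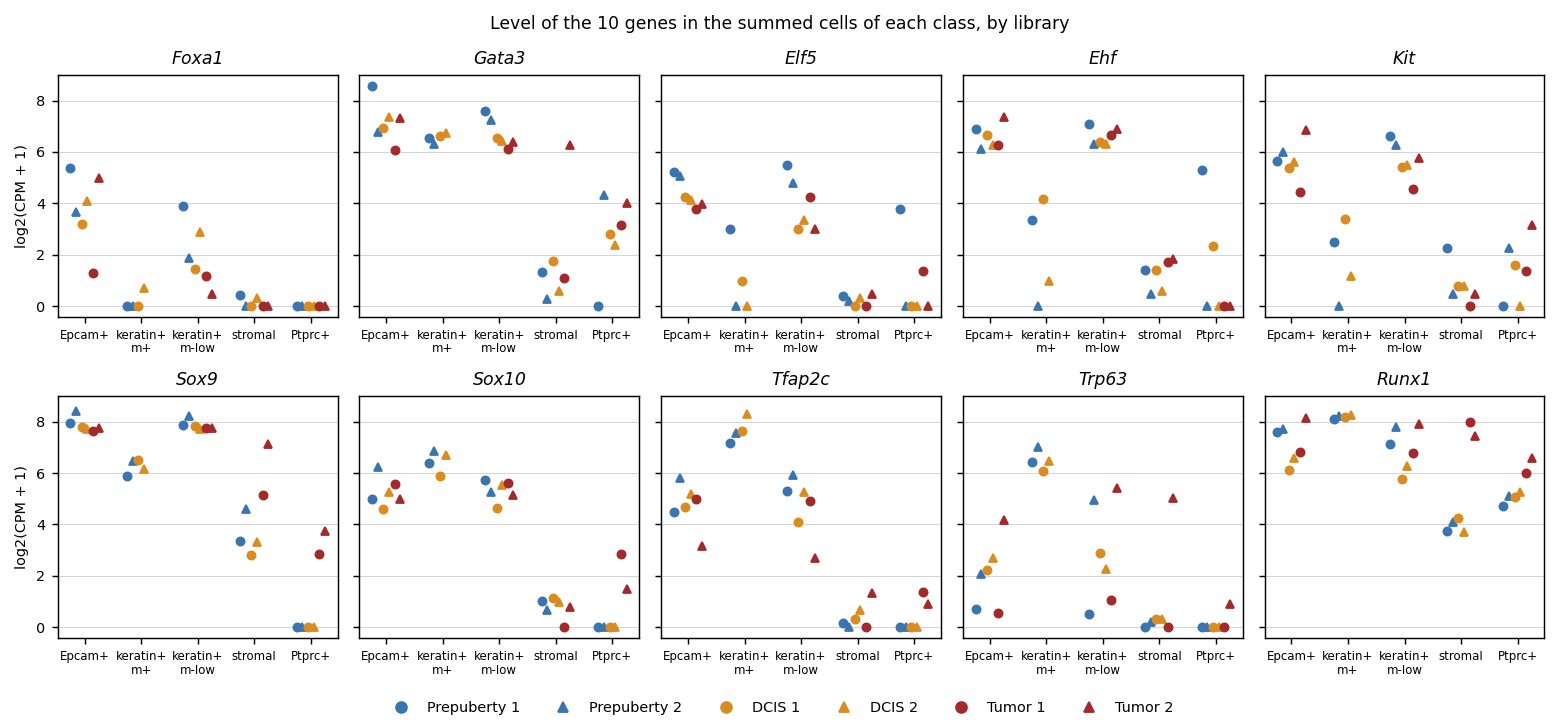
Level of each of the 10 genes in summed cells of 5 classes (horizontal axis; keratin+ m+ are the contractile Krt5/Krt14-positive cells, keratin+ m-low the others, Ptprc+ are leukocytes) as log2(CPM + 1), 1 point per library, coloured by state and shaped by library number. Foxa1, Elf5, Ehf and Kit sit low in contractile cells and high in Epcam+ cells, Trp63 and Tfap2c the other way round, and in stromal cells Runx1 and Sox9 lie highest in the 2 tumors and Gata3 and Trp63 in Tumor 2.

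The hormone-sensing luminal factors came first. Foxa1, a pioneer factor that opens chromatin for the estrogen receptor, stood at 40.8 and 11.6 CPM in Epcam-positive cells of Prepuberty 1 and 2, at 8.16 and 16.0 in DCIS 1 and 2, and at 1.44 and 30.4 in Tumor 1 and 2. In stromal cells Foxa1 ranged from 0 to 0.363 CPM, below every Epcam-positive value. In contractile cells of the 4 glands, Foxa1 had 2 UMIs among 5144416, against 713 among 35098553 in Epcam-positive cells, a ratio of 52.3 (95% counting interval 14.4 to 432). Both UMIs were in DCIS 2, and a count of 0 allows up to 6.95, 5.88 and 2.87 CPM in contractile cells of the other 3 glands. Gata3, which maintains luminal identity, stood at 383 and 110 CPM in Epcam-positive cells of the Prepuberty libraries, 122 and 163 in DCIS and 65.8 and 161 in the tumors. Unlike Foxa1, Gata3 was also present in contractile cells at 78.4 to 107 CPM.

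The ETS factors and Kit formed the progenitor group. Elf5, which drives alveolar differentiation, stood at 36.4 and 32.7 CPM in Epcam-positive cells of Prepuberty, 18.2 and 16.4 in DCIS and 12.7 and 14.8 in Tumor. Ehf, an ETS factor of many epithelia, ranged from 68.6 to 163 CPM in Epcam-positive cells, and Kit from 20.7 in Tumor 1 to 115 in Tumor 2. In the contractile cells of the 4 glands the levels were 0 to 6.95 for Elf5, 0 to 17.2 for Ehf and 0 to 9.55 for Kit, none of which reached an Epcam-positive value of the same gene. Elf5, Ehf and Kit were at or below 3.73 CPM in stromal cells of every library.

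The SOX factors were present in both epithelial classes. Sox9 ranged from 198 to 342 CPM in Epcam-positive cells and from 57.9 to 88.9 in contractile cells, with no overlap. Sox10 ranged from 23.0 to 74.4 CPM in Epcam-positive cells and from 57.3 to 114 in contractile cells, and these ranges overlapped. Sox10 is also a Schwann cell factor, and the stromal level did not pass 1.19 CPM.

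The basal factor Trp63 stood at 85.7, 127, 65.9 and 87.8 CPM in contractile cells of Prepuberty 1 and 2 and DCIS 1 and 2. In Epcam-positive cells Trp63 was at 0.449 to 5.54 CPM in 5 libraries and at 16.8 in Tumor 2. Tfap2c, the AP-2 factor, followed the same order, with 144 to 318 CPM in contractile cells and 7.99 to 54.8 in Epcam-positive cells, and the ranges did not overlap. Runx1 stood at 271 to 307 CPM in contractile cells of the glands and at 68.2 to 279 in Epcam-positive cells of all libraries.

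In the fit over 6 libraries, 8 of the 10 genes were higher in Epcam-positive than in stromal cells, against 26.9% of 12389 genes called higher and 24.5% lower (51.4% in all); the median log2 difference was 5.47 over the 10 genes and 0.03 over all genes. The largest were Foxa1 (log2 difference 7.01 ± 0.86 SE, adjusted p = 1.93e-05), Elf5 (6.79 ± 0.53, adjusted p = 3.88e-07) and Tfap2c (6.77 ± 0.84, adjusted p = 1.95e-05). Ehf differed by 6.14, Kit by 5.51, Gata3 by 5.44, Sox10 by 5.29 and Sox9 by 3.22 on the log2 scale. At an unadjusted p under 0.05 stood 9 of the 10, against 57.4% of all genes. Runx1 (1.5 ± 0.67, adjusted p = 0.0751) and Trp63 (1.76 ± 1.03, adjusted p = 0.167) did not pass. Within the 4 whole glands alone, an alternative added after seeing the data, all 10 were called, Runx1 at 2.87 and Trp63 at 4.59. Runx1 was also called without Tumor 1 alone (2.28, adjusted p = 0.00221). The 10 were listed as epithelial regulators, and in stromal cells Foxa1 and Elf5 did not pass 0.363 and 0.370 CPM. Such genes enter the test through epithelial cells and could hardly come out lower there. The counts against stromal cells, here and below, therefore describe the list and are no evidence for it.

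All 10 genes were higher in Krt5/Krt14-positive than in stromal cells, against 25.0% of the 12389 genes called higher and 22.8% lower (47.8% in all; 54.3% at an unadjusted p under 0.05). Tfap2c differed by 7.72 ± 0.83 (adjusted p = 7.09e-06), Elf5 by 5.95 ± 0.54 (adjusted p = 1.48e-06) and Trp63 by 4.85 ± 1.04 (adjusted p = 0.00175). The Trp63 call was lost in 1 of 19 other settings, the fit without the library as a block (3.0, adjusted p = 0.077). The call of Runx1 (1.78 ± 0.68, adjusted p = 0.0448) was lost in 6 of 19 other settings, among them leaving out Prepuberty 1, Prepuberty 2, DCIS 1 or DCIS 2 (adjusted p from 0.131 to 0.192). Tumor 2 moved several of these values: without it Gata3 was 7.30 in the Epcam-positive and 6.81 in the Krt5/Krt14-positive comparison, and Trp63 was 7.86 in the latter and 4.82, then called, in the former.

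None of the 10 genes was called between Epcam-positive and Krt5/Krt14-positive cells: edgeR called 0 of 10 (10 of 12389 genes, 0.0807%; 0.0565% higher and 0.0242% lower), 3 had an unadjusted p under 0.05 (6.93% of all genes), and DESeq2 called 2. Those 3 were Foxa1 (log2 difference 2.51 ± 0.60, adjusted p = 0.215), Trp63 (-3.09 ± 0.82, adjusted p = 0.261) and Elf5 (0.85 ± 0.33, adjusted p = 0.585). DESeq2 called Foxa1 and Trp63. In the whole glands alone Foxa1 (2.24) and Trp63 (-3.37) were called, and Trp63 was called without Tumor 2 alone (-3.05, adjusted p = 0.0147).

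The contractile cells gave another picture. Between Epcam-positive and contractile cells of the 4 glands, 5 of the 10 genes were higher and 4 lower in Epcam-positive cells, against 13.6% of 11988 genes called higher and 12.4% lower (26.0% in all). Higher were Foxa1 (fitted log2 difference 5.37 ± 0.66, adjusted p = 0.000131), Elf5 (4.51 ± 0.64, adjusted p = 0.000368), Ehf (4.02 ± 0.52, adjusted p = 0.000201), Kit (3.71 ± 0.68, adjusted p = 0.00196) and Sox9 (1.61 ± 0.26, adjusted p = 0.000746). Lower were Trp63 (-4.95 ± 0.41, adjusted p = 1.54e-05), Tfap2c (-2.76 ± 0.34, adjusted p = 0.000142), Sox10 (-1.26 ± 0.29, adjusted p = 0.00704) and Runx1 (-1.20 ± 0.33, adjusted p = 0.019). Gata3 did not pass (0.79 ± 0.37, adjusted p = 0.138). The calls of Runx1 and Sox10 were lost without DCIS 2 (adjusted p = 0.143 and 0.079), which gave 369 of the contractile cells; without it the fitted Foxa1 value rose to 9.77, since no UMI was then left in contractile cells. Without Prepuberty 1 the Elf5 difference was 6.22, and without DCIS 1 those of Ehf and Kit were 5.38 and 4.98.

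Against stromal cells of the same glands, 7 of the 10 genes were higher in contractile cells (19.1% of 11988 genes were called higher and 21.2% lower, 40.3% in all). Tfap2c (9.87 ± 0.53, adjusted p = 8.77e-08) and Trp63 (9.26 ± 0.57, adjusted p = 2.14e-07) led, followed by Gata3 (6.57), Sox10 (6.43), Runx1 (4.15), Sox9 (2.62) and Ehf (2.33). Elf5, Foxa1 and Kit did not pass. The Ehf call was lost without DCIS 1 (1.17, adjusted p = 0.261) or Prepuberty 1 (2.47, adjusted p = 0.0525), and Elf5 was called without DCIS 2 (3.5, adjusted p = 0.0309).

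**Figure D2:**
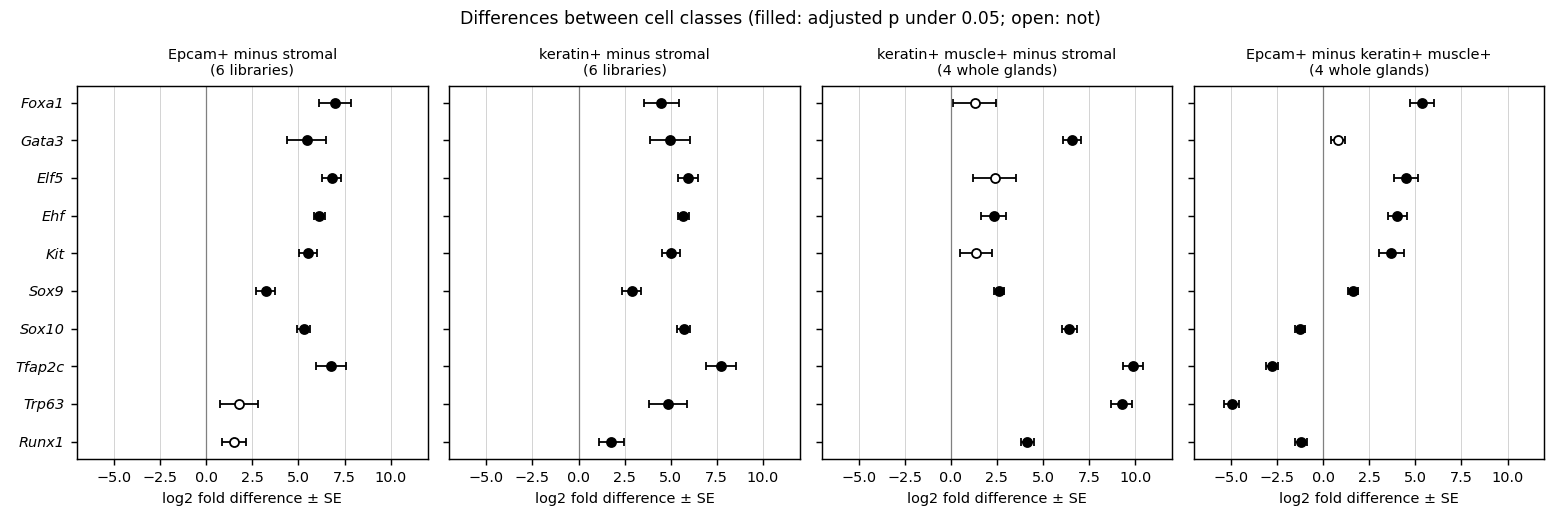
Log2 fold difference (horizontal axis, ± SE) of each of the 10 genes in 4 comparisons of cell classes by edgeR's quasi-likelihood test, filled where the adjusted p was under 0.05. In the last panel Foxa1, Elf5, Ehf, Kit and Sox9 lie to the right of 0 and Trp63, Tfap2c, Sox10 and Runx1 to the left.

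Other regulators came from lists, and of each list at most 3 called genes, those of largest difference, are named. Between Epcam-positive and stromal cells 26.9% of all genes were higher and 24.5% lower, beside which the counts below stand. Of 10 hormone-sensing luminal regulators, 7 were higher in Epcam-positive than in stromal cells, led by Msx2 (log2 difference 8.63), Myb (6.49) and the prolactin receptor Prlr (6.13). Of 12 secretory and progenitor regulators, 7 were higher and 1 lower, led by Grhl2 (8.73), an epithelial junction factor, and the ETS factor Elf3 (6.29). Of 12 tested basal and mesenchymal regulators, 4 were higher and 7 lower, with Twist2 (-5.09), Zeb2 (-5.04) and Zeb1 (-4.84), repressors of epithelial genes, farthest down. Of 14 tested family partners of the 10 genes, 8 were higher and 2 lower, with Sox6 (6.11), Tfap2b (4.61) and Tfap2a (4.51) first.

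Between Krt5/Krt14-positive and stromal cells the counts were 4 higher and 1 lower of 10 hormone-sensing, 7 higher of 12 secretory, 4 higher and 5 lower of 12 basal and mesenchymal regulators, and 8 higher and 3 lower of 14 partners, where 25.0% of all genes were higher and 22.8% lower. Between Epcam-positive and contractile cells of the glands, 13.6% of all genes were higher and 12.4% lower in Epcam-positive cells, beside which the next counts stand. Msx2 (6.92), Prlr (5.11) and Cited1 (3.75) were higher in Epcam-positive cells among 5 higher and 0 lower of 9 hormone-sensing regulators tested. Of 12 secretory and progenitor regulators 6 were higher and 2 lower, among them Notch3 (3.07), Elf3 (2.62) and Hey1 (-2.42). The repressor Snai2 (-4.76) and Id4 (-4.32), an inhibitor of helix-loop-helix factors, were lower, and Foxc1 (2.25) was higher, of 12 basal and mesenchymal regulators. Of 11 partners, 3 were lower in Epcam-positive cells: Sox8 (-2.83), Kitl (-1.72), which encodes the ligand of Kit, and Sox4 (-1.49). Kit itself was 3.71 higher in Epcam-positive cells, so ligand and receptor stood on opposite sides.

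The next comparisons set the 3 states against each other within a class, to follow the regulators from gland to tumor. In Epcam-positive cells none of the 10 genes was called by edgeR between DCIS and Prepuberty, where 0% of 12903 genes were called. At an unadjusted p under 0.05 stood 2 of the 10, against 10.4% of all genes, and DESeq2 called 0. Between Tumor and DCIS edgeR also called 0 of the 10 (0.0853% of genes called, 0.0310% higher and 0.0543% lower), with 1 at an unadjusted p under 0.05 (21.3% of genes) and 0 by DESeq2. Between Tumor and Prepuberty it called 0 (0.209% of genes called, 0.124% higher and 0.0853% lower), with 3 at an unadjusted p under 0.05 (24.4% of genes) and 1 by DESeq2. Elf5 was the gene called by DESeq2. Its libraries did not overlap between states, with 36.4 and 32.7 CPM in Prepuberty, then 18.2 and 16.4 in DCIS, then 12.7 and 14.8 in Tumor. The log2 differences of Elf5 were -0.90 ± 0.29 for DCIS against Prepuberty (adjusted p = 0.425), -0.76 ± 0.29 for Tumor against DCIS (adjusted p = 0.199) and -1.66 ± 0.30 for Tumor against Prepuberty (adjusted p = 0.0587). The sums of 2 luminal marker lists in the Epcam-positive cells were also lowest in both tumors, and that of the hormone-sensing list was not. Secretory luminal genes summed to 8882 and 14348 CPM in Prepuberty, 7570 and 9128 in DCIS and 2529 and 4668 in Tumor, and the 6 luminal genes to 9284 and 11540, 6339 and 10706, and 4085 and 3630. Hormone-sensing luminal genes summed to 1480 and 875, 594 and 795, and 301 and 1280, so Tumor 2 was the second highest library. With the fibroblast sums of 444 and 646 in the tumors, their part in the Elf5 values was not tested. The last Elf5 value ran from -1.87 to -1.34 over 19 other settings and missed the threshold in 15 of them.

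Elf5 was read in few cells. At 5000 UMIs per cell, the depth to which each cell was thinned for such shares, 11.5% of 511 Epcam-positive cells had an Elf5 UMI in Prepuberty 1 (95% Wilson interval 9.06% to 14.6%; counting error only), 10.2% of 88 in Prepuberty 2, 5.75% and 5.11% in DCIS 1 and 2, and 6.32% and 6.70% in Tumor 1 and 2. Without thinning the shares were 28.1%, 21.3%, 9.28%, 12.5%, 11.6% and 9.09%. In Ptprc-positive leukocytes, which should lack Elf5, 1 of 51 thinned cells of Tumor 1 had a UMI and 0 of the thinned cells of the other libraries did; in stromal cells the share was 0.26% or less. Median depths were 6637 to 10865 UMIs in Epcam-positive cells and 3720 to 8207 in Ptprc-positive cells.

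Gata3 and Sox9 were the other genes under an unadjusted p of 0.05 between Tumor and Prepuberty in Epcam-positive cells. The log2 difference of Gata3 was -1.57 ± 0.63 (adjusted p = 0.187), with Prepuberty 2 (110 CPM) below Tumor 2 (161). It was -0.28 without Prepuberty 1, which gave the end nearest to 0 of 19 other settings, and -2.30 without Prepuberty 2, and it was called in 1 setting, without the filter on low counts (adjusted p = 0.0021). That of Sox9 was -0.82 ± 0.29 (adjusted p = 0.149), with 249 and 342 CPM in Prepuberty and 198 and 216 in Tumor. That of Runx1 between DCIS and Prepuberty was -1.19 ± 0.39 (adjusted p = 0.428), with 191 and 210 CPM in Prepuberty and 68.2 and 94.0 in DCIS; its tumor values of 112 and 279 lay on both sides of Prepuberty.

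Levels of several genes differed between the 2 tumors, which also differ in reagent version and have no replicate of their own. In Epcam-positive cells of Tumor 1 and Tumor 2, Foxa1 was at 1.44 and 30.4 CPM, Trp63 at 0.449 and 16.8, Kit at 20.7 and 115, and Tfap2c at 30.4 and 7.99. At 5000 UMIs, 0.527% of 1519 cells had a Foxa1 UMI in Tumor 1 (0.267% to 1.04%) and 9.28% of 194 in Tumor 2 (5.95% to 14.2%). T antigen itself was read without thinning, so its shares are not matched for depth. It was detected in 67.6% of the Epcam-positive cells of Tumor 1 (median depth 10160 UMIs) and 24.9% of those of Tumor 2 (6637 UMIs). In Tumor 2 the Foxa1 level was 0.398 CPM in Krt5/Krt14-positive cells, where 62.7% of cells (median depth 18867 UMIs) had a T-antigen UMI. The part of transformed cells in these values was not tested.

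**Figure D3:**
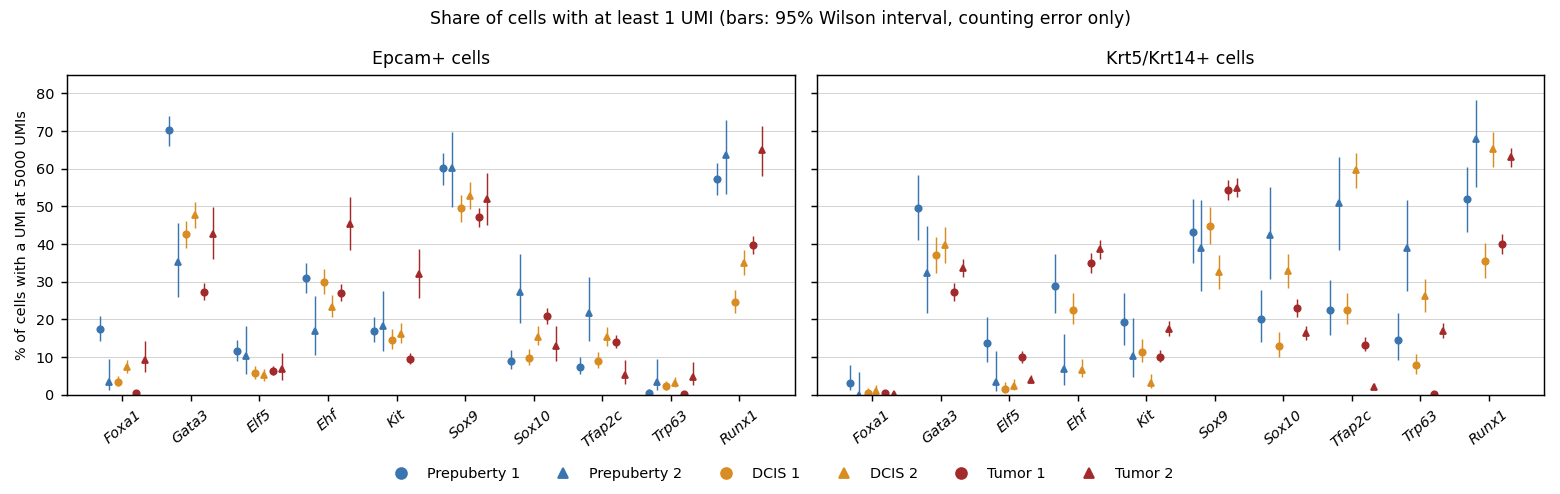
Percent of cells with at least 1 UMI of each gene after thinning to 5000 UMIs, by library (points; bars are 95% Wilson intervals), in Epcam+ and Krt5/Krt14+ cells. Elf5 is highest in the Prepuberty libraries among Epcam+ cells, and Foxa1, Kit, Ehf and Runx1 differ between the 2 tumors.

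In Krt5/Krt14-positive cells edgeR again called none of the 10 genes between DCIS and Prepuberty (0% of 12183 genes called), with 1 at an unadjusted p under 0.05 (7.04% of genes) and 0 by DESeq2. Between Tumor and DCIS it called 0 of the 10 (0.919% of genes called, 0.172% higher and 0.747% lower), with 1 at an unadjusted p under 0.05 (19.4% of genes) and 1 by DESeq2. Between Tumor and Prepuberty it called 0 (0.936% of genes called, 0.295% higher and 0.640% lower), with 3 at an unadjusted p under 0.05 (18.4% of genes) and 0 by DESeq2. Tfap2c, the gene called by DESeq2, stood at 54.2 and 134 CPM in Prepuberty, 44.0 and 190 in DCIS, and 29.4 and 5.48 in Tumor. The tumors lay below every gland, and the log2 difference of Tfap2c was -3.04 ± 0.98 against DCIS (adjusted p = 0.154) and -2.49 ± 0.97 against Prepuberty (adjusted p = 0.223). Leaving out 1 library, these values ran from -4.99 (without Tumor 1) to -1.58 (without DCIS 2) and from -4.44 (without Tumor 1) to -1.65 (without Tumor 2). Acta2 moved with it, at 1083 to 3085 CPM in this class of the glands and 1.19 to 1.66 in the tumors; its part in the Tfap2c values was not tested.

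Within the Krt5/Krt14-positive cells that were not contractile, Tfap2c was at 38.3 and 59.1 CPM in Prepuberty, 16.0 and 37.1 in DCIS, and 29.4 and 5.50 in Tumor, so Tumor 1 then lay among the glands. Trp63 in those cells was at 0.412 and 29.5 in Prepuberty, 6.36 and 3.79 in DCIS, 1.07 in Tumor 1 and 41.5 in Tumor 2, the highest of the 6 libraries. The log2 difference of Foxa1 between Tumor and Prepuberty was -3.33 ± 1.12 (adjusted p = 0.177) over the whole class, where it was at 11.9 and 1.13 CPM in Prepuberty and 1.25 and 0.398 in Tumor. Without Prepuberty 1 the Foxa1 difference was -0.51. That of Gata3 was -1.19 ± 0.39 (adjusted p = 0.169). The difference of Elf5 between DCIS and Prepuberty was -2.21 ± 0.76 (adjusted p = 0.677), with 38.1 and 11.3 against 6.12 and 4.14 CPM.

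Whether a state changed a gene differently in the 2 epithelial classes was tested with an interaction term. None of the 10 genes was called by edgeR for Tumor against DCIS (0.143% of 13305 genes called, all lower; 4 of the 10 and 6.31% of genes at an unadjusted p under 0.05) or for DCIS against Prepuberty (0.00752% called; 2 of the 10 and 4.09% of genes). DESeq2 was not run on this term. For Tumor against DCIS, the difference in Krt5/Krt14-positive minus that in Epcam-positive cells was 1.65 ± 0.58 for Elf5 (adjusted p = 0.592) and -1.86 ± 0.46 for Tfap2c (adjusted p = 0.226).

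Of the other regulators tested in Krt5/Krt14-positive cells (9 hormone-sensing, 12 secretory, 12 basal and mesenchymal, and 15 partners), 3 were called between Tumor and DCIS, where 0.919% of all genes were: Twist1 (4.95 ± 0.73, adjusted p = 0.0304) and the SOX factor Sox5 (4.29 ± 0.72, adjusted p = 0.0406) were higher in Tumor and Gata6 (-5.30 ± 0.94, adjusted p = 0.0468) was lower. Between Tumor and Prepuberty, where 0.936% of all genes were called, the progesterone receptor Pgr (-6.63 ± 0.92, adjusted p = 0.0259) and Msx2 (-5.32 ± 0.92, adjusted p = 0.0401) were lower, and Twist1 (5.67), Sox5 (5.03) and Sox11 (4.15) higher. Sox11, an embryonic SOX factor, was the regulator called in Epcam-positive cells (6.04 ± 0.68, adjusted p = 0.0395, Tumor against Prepuberty, with 0.209% of all genes called). These comparisons share their libraries, and no member of the 10 passed in any of them.

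Runx1 was the gene called between states, in stromal cells. In these cells 4 of the 10 genes (Gata3, Runx1, Sox9 and Ehf) passed the filter on low counts in the comparison of states. Runx1 stood at 12.4 and 16.1 CPM in Prepuberty, 17.8 and 11.9 in DCIS, and 252 and 171 in Tumor 1 and 2. Both tumors lay above every gland.

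Runx1 was higher in Tumor than in DCIS by 3.25 ± 0.48 on the log2 scale (9.51-fold, adjusted p = 0.0267) and than in Prepuberty by 3.56 ± 0.48 (11.8-fold, adjusted p = 0.0285); against DCIS 4.27% of 11652 genes were called (1.91% higher, 2.37% lower) and against Prepuberty 1.93% (1.18% higher, 0.755% lower). At an unadjusted p under 0.05 stood 3 of the 4 tested genes in each, against 28.0% and 22.7% of all genes. The size held, at 2.57 to 3.84 and 2.87 to 3.99, over 19 other settings, but the call against DCIS was lost without Prepuberty 1, Prepuberty 2, DCIS 1 or DCIS 2 and with only the 4 libraries compared (adjusted p from 0.0538 to 0.256), and the call against Prepuberty was lost in the same 5 settings (adjusted p from 0.073 to 0.168). Between DCIS and Prepuberty edgeR called 0 of the 4 genes (0% of 11652), none had an unadjusted p under 0.05 (8.05% of all genes did), and DESeq2 called 0.

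The tumor libraries held few stromal cells, 86 and 181 against 512 to 1807 in the glands. Runx1 had a UMI in 64.6% of 79 and 45.7% of 164 thinned stromal cells of Tumor 1 and 2, and in 5.20% to 7.90% of those of the glands. The unthinned shares were 80.2%, 67.4% and 7.72% to 13.8%. Leukocytes also express Runx1: in Ptprc-positive cells of the tumors it was at 62.5 and 94.5 CPM, below the stromal levels of the same libraries.

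**Figure D4:**
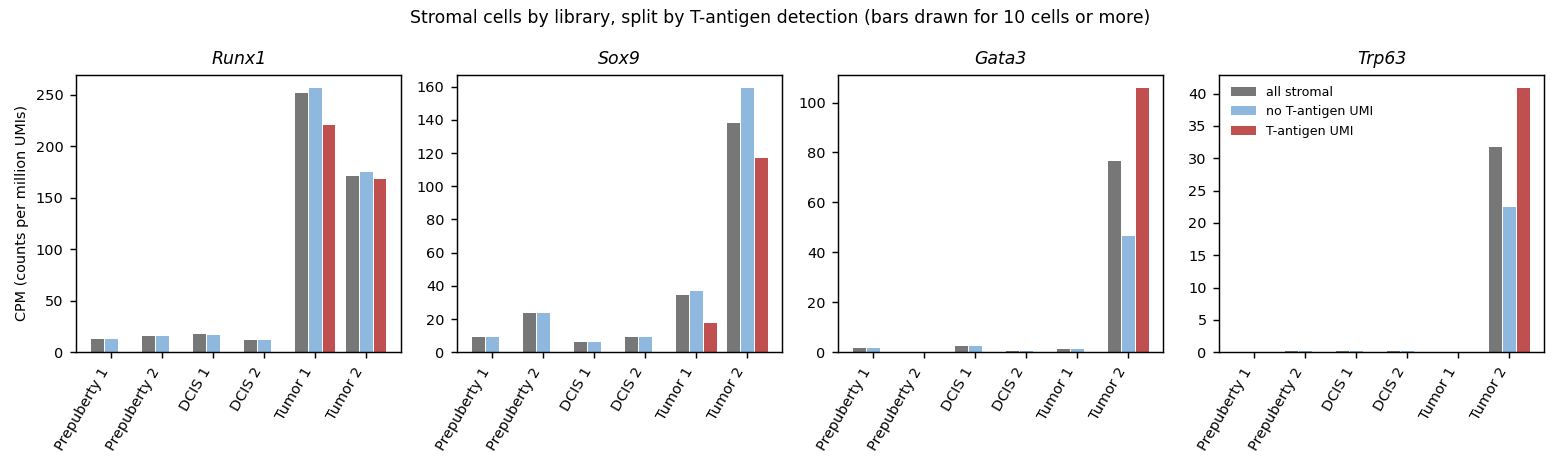
CPM of Runx1, Sox9, Gata3 and Trp63 in stromal cells of each library (grey), and in those with (red) and without (blue) a T-antigen UMI, drawn where there were 10 cells or more. Runx1 is high in both tumors and in both kinds of cell, while Gata3 and Trp63 are high in Tumor 2 alone.

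Without thinning, T antigen was detected in 12.8% of stromal cells of Tumor 1 and 42.0% of those of Tumor 2 (76 of 181 cells), and in at most 0.391% of those of a gland. Median depths of stromal cells were 10019.5 and 13487 UMIs in Tumor 1 and 2 and 7150 to 10774 in the glands. Runx1 was at 257 and 175 CPM in the tumor stromal cells without a T-antigen UMI, and at 221 and 168 in those with one. Of 4 T cell genes, Cd3d, Cd3e and Cd3g had 2, 19 and 1 UMIs in stromal cells of Tumor 1 and were at 0 in Tumor 2, where Trbc2 alone had 395 UMIs. The 6 fibroblast genes summed to 34706 and 7868 CPM in the tumors and 1033 to 5393 in the glands, and Acta2 was at 969 and 43.6 against 14.5 to 27.1. Runx1 kept its call in both comparisons in the fit of stromal cells without a T-antigen UMI. Absence of a UMI does not show that a cell lacks T antigen. Beyond that fit, the part of these kinds of cell in the Runx1 values was not tested.

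Sox9 did not pass in stromal cells. Its levels were 9.28 and 23.5 CPM in Prepuberty, 5.93 and 9.0 in DCIS, and 34.4 and 138 in Tumor, with no overlap between tumors and glands. The log2 difference was 2.77 ± 0.65 against DCIS (adjusted p = 0.057) and 1.91 ± 0.61 against Prepuberty (adjusted p = 0.134). Without Tumor 2, the highest library, the Sox9 differences were 1.77 (adjusted p = 0.183) and 0.92 (adjusted p = 0.448). With the library number as a block, an alternative for which the labels give the numbers no meaning, Sox9 passed at 2.64 (adjusted p = 0.0212) and 1.85 (adjusted p = 0.0441).

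Gata3 and Trp63 rested on Tumor 2. Gata3 had 207 UMIs (76.5 CPM) in stromal cells of Tumor 2 and 0.20 to 2.37 CPM in the other libraries. It differed by 4.13 ± 1.5 (adjusted p = 0.132) against DCIS, and by -0.65 without Tumor 2. Trp63 had 86 UMIs (31.8 CPM) there and 0 to 2 UMIs in each other library, and it was not tested. Within Tumor 2, Gata3 was at 106 and Trp63 at 40.9 CPM in the 76 stromal cells with a T-antigen UMI, and at 46.4 and 22.4 in the 105 without one. The 6 luminal genes summed to 86.5 CPM there, against 3630 in Epcam-positive cells of the same library. Elf5, Foxa1 and Kit had 0 or 1 UMI in the stromal cells of Tumor 2.

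Other regulators called in stromal cells were the Notch target Hey1, higher in Tumor than in DCIS (4.84 ± 0.83, adjusted p = 0.034), and Twist2 (-3.47 ± 0.44, adjusted p = 0.0239), Cited1 (-4.44 ± 0.82, adjusted p = 0.0384) and Pgr (-4.38 ± 0.79, adjusted p = 0.0366), lower in Tumor. That is 1 higher of 10 secretory, 1 lower of 12 basal and mesenchymal, 2 lower of 7 hormone-sensing regulators and 0 of 10 partners tested. Of all genes 1.91% were called higher and 2.37% lower. Against Prepuberty, Runx3 (8.0 ± 1.39, adjusted p = 0.0452), a RUNX partner better known in lymphocytes, and Foxc1 (4.98 ± 0.93, adjusted p = 0.0494) were higher beside Hey1 (4.53), and Twist2 (-3.62) was lower. That is 1 higher of 10 secretory, 1 higher and 1 lower of 12 basal and mesenchymal regulators, 1 higher of 10 partners and 0 of 7 hormone-sensing regulators. Of all genes 1.18% were called higher and 0.755% lower. The 4 T cell genes summed in stromal cells to 42.4 and 146 CPM in the tumors and 0.311 to 4.27 in the glands, in Tumor 2 all from Trbc2, with Cd3d, Cd3e and Cd3g at 0; their part in the Runx3 value was not tested.

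Whether the genes were read in the same cells was described by co-detection. For each pair and library the odds of a UMI of both genes in a cell thinned to 5000 UMIs were set against chance, with 0.5 added to each of the 4 cell counts, an odds ratio above 1 meaning that the genes were found together more often than their shares predict. Pairs with at least 5 expected double-positive cells in at least 3 libraries were used. These values describe cells that share a library and carry no p-value. The mean number of the 10 genes with a UMI was 1.91 to 2.81 per Epcam-positive cell, 1.96 to 2.92 per Krt5/Krt14-positive cell and 0.0975 to 1.16 per stromal cell.

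In Epcam-positive cells 32 pairs could be used, of which 6 had an odds ratio above 1 and 3 below 1 in every library used. Elf5 and Ehf were found together in 143 cells against 72.1 predicted, with odds ratios of 3.57 in Prepuberty 1, 2.24 and 2.87 in DCIS, and 5.04 and 6.20 in Tumor. Ehf and Kit were found together in 263 cells against 156, with odds ratios of 3.93 in Prepuberty 1, 1.79 and 2.25 in DCIS, and 3.56 and 4.78 in Tumor. Sox10 joined Ehf (1.37 to 4.38 in 5 libraries), Kit (1.04 to 4.61 in 5) and Elf5 (1.39 to 5.25 in 3).

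The remaining pair was Gata3 and Foxa1, with 141 cells against 108 and odds ratios of 2.31 in Prepuberty 1, 2.26 and 1.80 in DCIS and 19.4 in Tumor 2; Tumor 1 had too few Foxa1 cells. Below 1 in each library used were Foxa1 with Ehf (0.80, 0.65, 0.54 and 0.16 in Prepuberty 1, DCIS 1, DCIS 2 and Tumor 2), Foxa1 with Kit (0.91, 0.63 and 0.16 in Prepuberty 1, DCIS 2 and Tumor 2) and Runx1 with Kit (0.59 to 0.92 in 6 libraries). In Tumor 2, 2 of the 18 Foxa1 cells had Ehf, where 8.16 were predicted. Thinned to 3000 UMIs, 26 pairs could be used, of which 4 were above 1 in every library used (Elf5 with Ehf, Ehf with Kit, Sox10 with Kit, and Gata3 with Runx1) and 0 below 1. Runx1 with Kit was then above 1 in 3 of 5 libraries (0.49 to 1.18), and the pairs of Foxa1 with Ehf, Kit and Gata3 had too few predicted cells to be used. Sox10 with Ehf and Sox10 with Elf5 were not among the pairs then above 1 in every library used.

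With the markers Esr1, Prlr, Csn3 and Aldh1a3, 30 pairs could be used in Epcam-positive cells, of which 11 were above and 2 below 1 in every library used (7 and 0 of 25 at 3000 UMIs). The prolactin receptor Prlr was found with Foxa1 (odds ratios 1.82 to 38.1), Gata3 (1.26 to 3.54) and Runx1 (1.11 to 2.46), and the estrogen receptor gene Esr1 with Gata3 (1.17 to 3.67) and Runx1 (1.06 to 2.29). Prlr with Ehf was above 1 in 1 of 5 libraries (0.53 to 4.56; 279 cells against 263 predicted), and with Elf5 in 1 of 4 (0.59 to 4.36; 82 against 67.3). Esr1 was below 1 with Ehf (0.36 to 0.64) and Kit (0.34 to 0.70). The casein gene Csn3 was found with Elf5 (1.87 to 8.38) and Ehf (1.55 to 3.78), and the progenitor enzyme gene Aldh1a3 with Kit (1.18 to 5.5), Ehf (1.18 to 2.47), Elf5 (1.16 to 1.52) and Sox9 (1.03 to 2.34).

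In Krt5/Krt14-positive cells 30 pairs could be used, of which 8 were above and 1 below 1 in every library used. The pair below was Trp63 with Ehf: 0 of 18 Trp63 cells of Prepuberty 1 and 0 of 106 of DCIS 2 had an Ehf UMI, where 5.18 and 7.05 were predicted; a count of 0 allows shares of up to 16.7% and 2.83% with a UMI at 5000 UMIs per cell, which sets no limit on the cells that express Ehf. The shared cells were 2 of 31 in DCIS 1 where 6.98 were predicted, and 77 of 245 in Tumor 2 where 94.5 were. Trp63 was found with Tfap2c (1.52 to 3.18) and Runx1 (1.17 to 5.04). Ehf with Kit was above 1 here too (2.18 to 3.57), as were Sox9 with Ehf (1.11 to 2.34) and Sox9 with Kit (1.06 to 4.01). This class mixes contractile and other cells in the glands, and among contractile cells alone 11 pairs could be used, of which 0 lay above and 0 below 1 in every library. Thinned to 3000 UMIs the class had 4 pairs above and 3 below 1 of 21, the latter being Elf5 with Runx1, Sox9 with Trp63 and Sox9 with Runx1, while Trp63 with Ehf, Trp63 with Tfap2c and Ehf with Kit had too few predicted cells to be used, and its contractile cells 0 above and 1 below of 7.

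**Figure D5:**
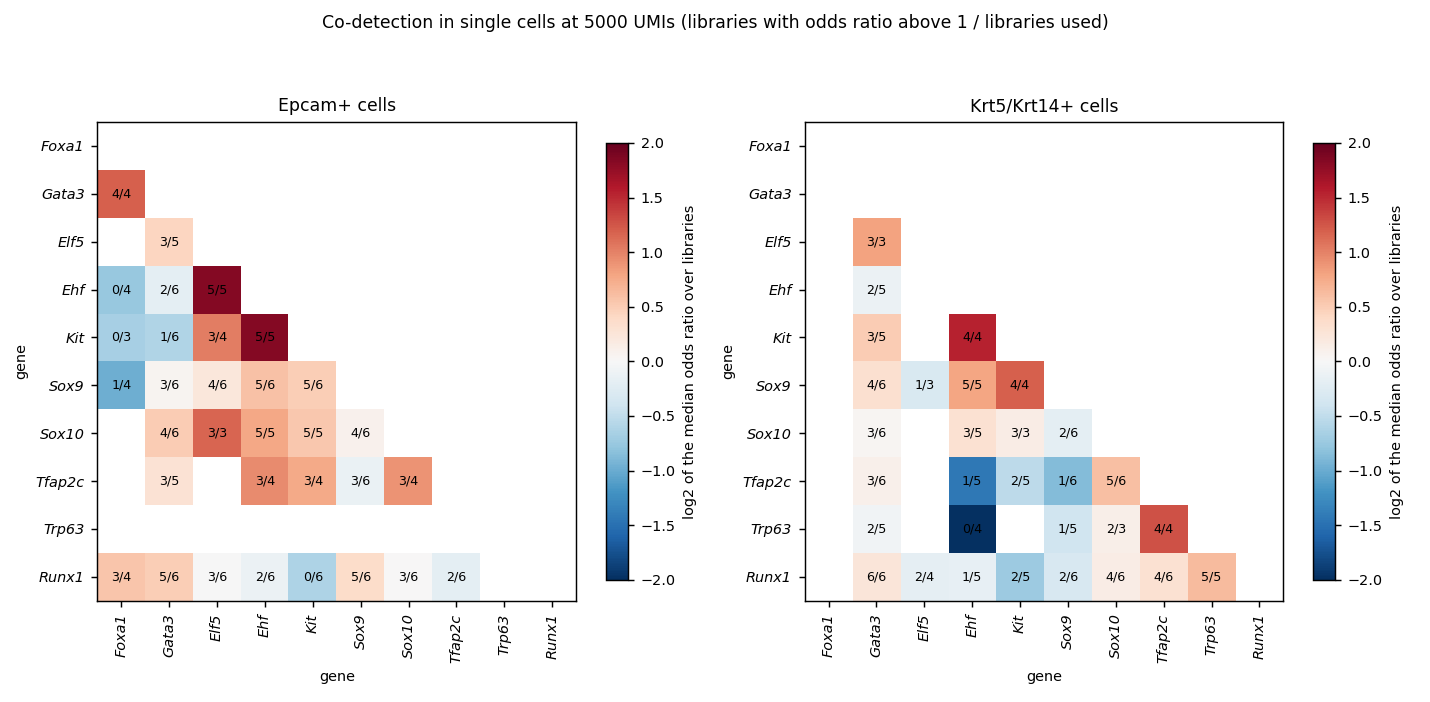
Median odds ratio of co-detection over libraries (colour, log2 scale) for pairs of the 10 genes in Epcam+ and Krt5/Krt14+ cells at 5000 UMIs, with the number of libraries above 1 out of those used; white pairs had too few predicted cells. Elf5 with Ehf and Ehf with Kit reach 5 of 5 in Epcam+ cells, and Trp63 with Ehf 0 of 4 in Krt5/Krt14+ cells.

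Over the 18 summed samples (3 classes in 6 libraries), the levels of the 10 genes followed each other with Pearson correlations of log2 values from 0.30 (Foxa1 and Trp63) to 0.94 (Sox10 and Tfap2c). These points share libraries, and 6 of the 18 are stromal. By the same measure the genes most like each were Slc5a5 for Foxa1 (r = 0.96), Crybg1 for Gata3 (0.97), Syne4 for Elf5 (0.98), Chmp4c for Ehf (0.98), Shroom2 for Kit (0.98), Net1 for Sox9 (0.97), Proser2 for Sox10 (0.98), Rnf43 for Tfap2c (0.97), 4631405K08Rik for Trp63 (0.90) and Fat1 for Runx1 (0.95), among 12389 genes. Next to them stood Col17a1 for Trp63 (0.89), a basal cell adhesion gene, Itga6 for Tfap2c (0.96), an integrin of the basal layer, and Erbb3 for Kit (0.98).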

How the data were processed

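Filtered matrices of raw UMI counts per gene and cell, 1 for each of 6 libraries, were deposited; the authors' notes name Cell Ranger and mm10, and the file headers give Cell Ranger 3.0.2. The notes also name STAR, SAMtools, Picard and Salmon. Barcodes (23835) with fewer than 200 genes (546) or at least 10% mitochondrial UMIs (1045) were removed, as were 707 doublets called by Scrublet in scanpy 1.11.5. Counts were summed per library and class (state fits used all 6 libraries of a class) and tested with edgeR 4.0.16 (filterByExpr, TMM, quasi-likelihood; R 4.3.3); DESeq2 1.42.0, no TMM, no filter, other gates and leaving out each library were alternatives. Scripts were tested on simulated data. For shares of the 10 genes and co-detection each cell was thinned to 5000 UMIs, shallower cells left out, unless given as unthinned. Shares of cells with T antigen, Epcam, or Acta2 and Myh11 UMIs were taken over all kept cells without thinning. Intervals and floors cover counting error only. Correlations used a prior count of 2.

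Named genes were the 10 members, at most 3 called genes of largest difference per list and the 3 genes most like each member. Members and lists were chosen with earlier results of these data known. Deviations of numbered libraries correlated at 0.333, 0.103 and 0.164 over the pairs of states in stromal cells. In Epcam-positive cells they correlated at -0.084 to 0.145 and in Krt5/Krt14-positive cells at -0.020 to 0.287, so the ranges overlap. The labels give the numbers no meaning, and a fit with them as a block was an alternative only. The sums of 1 of the 11 marker lists are not reported here.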

Additional observations from a re-analysis of the deposited data

How the results depend on the processing

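Of 1166 values of 73 gene differences, 1164 kept their direction, 21 lost a call and 48 gained one. Gata3 reversed in stromal cells (Tumor against DCIS, -0.65 without Tumor 2, up to 5.48 on leaving out another library). Foxa1 reversed between contractile and stromal cells (-2.77 without DCIS 2, up to 1.81 on leaving out another library and 2.24 over all settings), where contractile cells hold 2 of its UMIs. The cause was not tested beyond these counts. Where 0 of the 10 genes were called, DESeq2 called 1 for Tumor against Prepuberty in Epcam-positive cells, 1 for Tumor against DCIS in Krt5/Krt14-positive cells and 2 between these classes (2 also in the 4 whole glands). Without the filter on low counts these numbers were 3 for Tumor against Prepuberty in Epcam-positive cells, 1, 1 and 2 for DCIS against Prepuberty, Tumor against DCIS and Tumor against Prepuberty in Krt5/Krt14-positive cells and 2 for the interaction of Tumor against DCIS. Thinned sums gave 1 for Tumor against Prepuberty in Epcam-positive cells. Both epithelial classes summed, which is 1 fit of the pooled cells and belongs to neither class, gave 1 for Tumor against Prepuberty. That pooled fit is counted under both class names among the other settings. In stromal cells, where 1 was called, Tumor against DCIS gave 3 with DESeq2, 2 without TMM, 4 without the filter, 0 with only the 4 libraries and 2 in cells without T antigen, and Tumor against Prepuberty 3, 4 without the filter and 0 with only the 4 libraries. With the replicate number as a block, 2 were called in both stromal comparisons (Runx1 and Sox9). The labels give these numbers no meaning, and deviations of libraries of the same number correlated from -0.084 to 0.333 over the classes.

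Leaving out 1 library gave 0 to 1 called genes for Tumor against DCIS and 0 to 3 for Tumor against Prepuberty in Epcam-positive cells, 0 to 4 in either stromal comparison with Tumor, 0 to 1 between the epithelial classes and 0 to 1 for the interaction; the cause was not tested. Over all genes, the numbers called ran from 0 to 1488 (11 in the text) and 0 to 2048 (27) for these Epcam-positive comparisons, 16 to 1266 (112) and 2 to 1319 (114) in Krt5/Krt14-positive cells, 0 to 2392 (498) and 0 to 2015 (225) in stromal cells, 0 to 503, 0 to 210 and 0 to 278 (0 each) for DCIS against Prepuberty in the 3 classes, and 0 to 192 (10) between the epithelial classes. At 3000 UMIs, pairs below 1 went from 3 to 0 in Epcam-positive cells, pairs above 1 from 8 to 4 and below 1 from 1 to 3 in Krt5/Krt14-positive cells, in part because pairs then had too few predicted cells, and the mean number of the 10 genes per cell, as a median over libraries, went from 2.41 to 1.72 and from 2.57 to 1.81 in these classes, as fewer UMIs are read. By Spearman's rank correlation, 5 of the 30 most alike genes were shared with the list by Pearson's.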
